A study of Mus musculus with 24 samples.

Results

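Complement components and receptors were followed as 8 genes: C1qa, C1qb and C1qc, C4b, C3 and Cfb, and the receptor genes C3ar1 and C5ar1. They were taken by mouse symbol from the deposited count table of sorted brain microglia, where they are 8 of 49315 gene rows, and all 8 were among the 17579 genes with enough counts to test. Each gene's level was followed in 24 libraries, as CPM, a count scaled to the library's total and composition.

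The study asked how loss of microRNAs from adult microglia bears on gene expression during demyelination and remyelination. Microglia were sorted by flow cytometry from mouse brain as CD45int CD11b+ cells and sequenced as bulk RNA, with 3 biological replicates in each of 8 groups. Every mouse had received tamoxifen. The knockout libraries came from Cx3cr1 Cre+ mice, in which the tamoxifen-dependent recombinase Cx3cr1creERT2 acts on Dicer1, and their controls were Cx3cr1 Cre- mice. Naive mice had tamoxifen and no cuprizone, a copper chelator fed to kill oligodendrocytes and strip myelin. Demyelination mice were on cuprizone for 6 weeks, with tamoxifen at 4-5 weeks, where the series text does not say whether this is an age or a time on the diet. Mice of the remyelination group with tamoxifen at the start had the same 6 weeks of cuprizone and then 6 weeks of normal diet. In the remyelination group with tamoxifen at the peak the diets were the same and tamoxifen was given in week 5 of cuprizone. Cx3cr1 is also active in border-associated macrophages and some monocytes, so the driver is not limited to microglia. The mice are described only as adult. Which Dicer1 alleles the Cre- mice carried is not given in the sources used here.

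Complement is a protein cascade that tags surfaces for removal. C1q, a hexamer built from the products of C1qa, C1qb and C1qc, starts the classical route, and C4 with C2 then forms the enzyme that splits C3, while factor B does this for the alternative route. The fragments C3a and C5a signal through C3ar1 and C5ar1 on myeloid cells, and microglia are the main source of C1q in the brain, where C1q and C3 take part in synapse removal and in clearing myelin debris.

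The libraries differed in ways that touch the results. Totals, in megacounts (M), ran from 19.48 to 44.53 M in the naive state, from 21.87 to 32.71 M in demyelination, from 8.87 to 12.56 M in remyelination with tamoxifen at the start and from 8.94 to 12.09 M with tamoxifen at the peak. Depth therefore separates both remyelination groups from the other states, and since the labels name no batch, a batch and the state cannot be told apart there. No library repeated another (highest correlation 0.9903). Dicer1 was not called lower in any Cre+ group by whole-gene counts: naive levels were 18.55, 11.1 and 12.07 CPM in Cre- and 21.81, 22.06 and 24.31 CPM in Cre+ (edgeR log2 difference 0.72 ± 0.16 SE, adjusted p = 0.00151, higher), and the difference was -0.45 in demyelination, with adjusted p = 0.0922. Which part of the gene was deleted is stated nowhere in the labels, so these counts do not check the knockout, and the groups are named by their Cre label throughout. Cx3cr1, the gene that carries the driver, was lower in every Cre+ library than in any Cre- library of its state. It stood far lower in 3 libraries: naive Cre+ replicate 1 at 227.1 CPM and demyelination Cre+ replicates 1 and 3 at 104.3 and 89.62 CPM, against 2312 to 4571 CPM in the other Cre+ libraries. Results whose call was lost without these 3 libraries are also given without them. That fit keeps 2 naive Cre+ libraries but only 1 demyelination Cre+ library, replicate 2, which is assumed to vary like the other groups, so a call lost there is no test of the demyelination Cre+ group. All 10 microglia markers were detected in every group, with summed levels between 37250 and 80800 CPM.

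Ranked by CPM per kilobase of exon, the C1q genes were among the most abundant transcripts of these cells, and the members fell into 3 tiers. Over the 8 groups C1qb ranked between 3 and 7 of 17534 genes, and C1qa and C1qc between 7 and 12. C3ar1 ranked between 181 and 294 and C5ar1 between 315 and 580. C4b, C3 and Cfb were low, with best ranks of 4889, 6133 and 9674. In naive Cre- microglia C1qb had a mean of 7459 CPM per kilobase. C1qc, at 3826 to 3951 CPM per kilobase over the 3 libraries, overlapped C1qa at 3074 to 3860, so the order of these neighbours is not settled by their spread. C3ar1 had 159.7 and C5ar1 125.1 CPM per kilobase, against 0.7897 for C4b, 0.3231 for C3 and 0.05376 for Cfb. The 3 C1q genes together took 1.88% to 1.98% of all scaled counts in naive Cre- libraries and 1.48% to 1.53% in naive Cre+ libraries. In demyelination the share was 2.11% to 2.43% across both genotypes, and in both remyelination groups it was 0.924% to 1.32%.

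**Figure D1:**
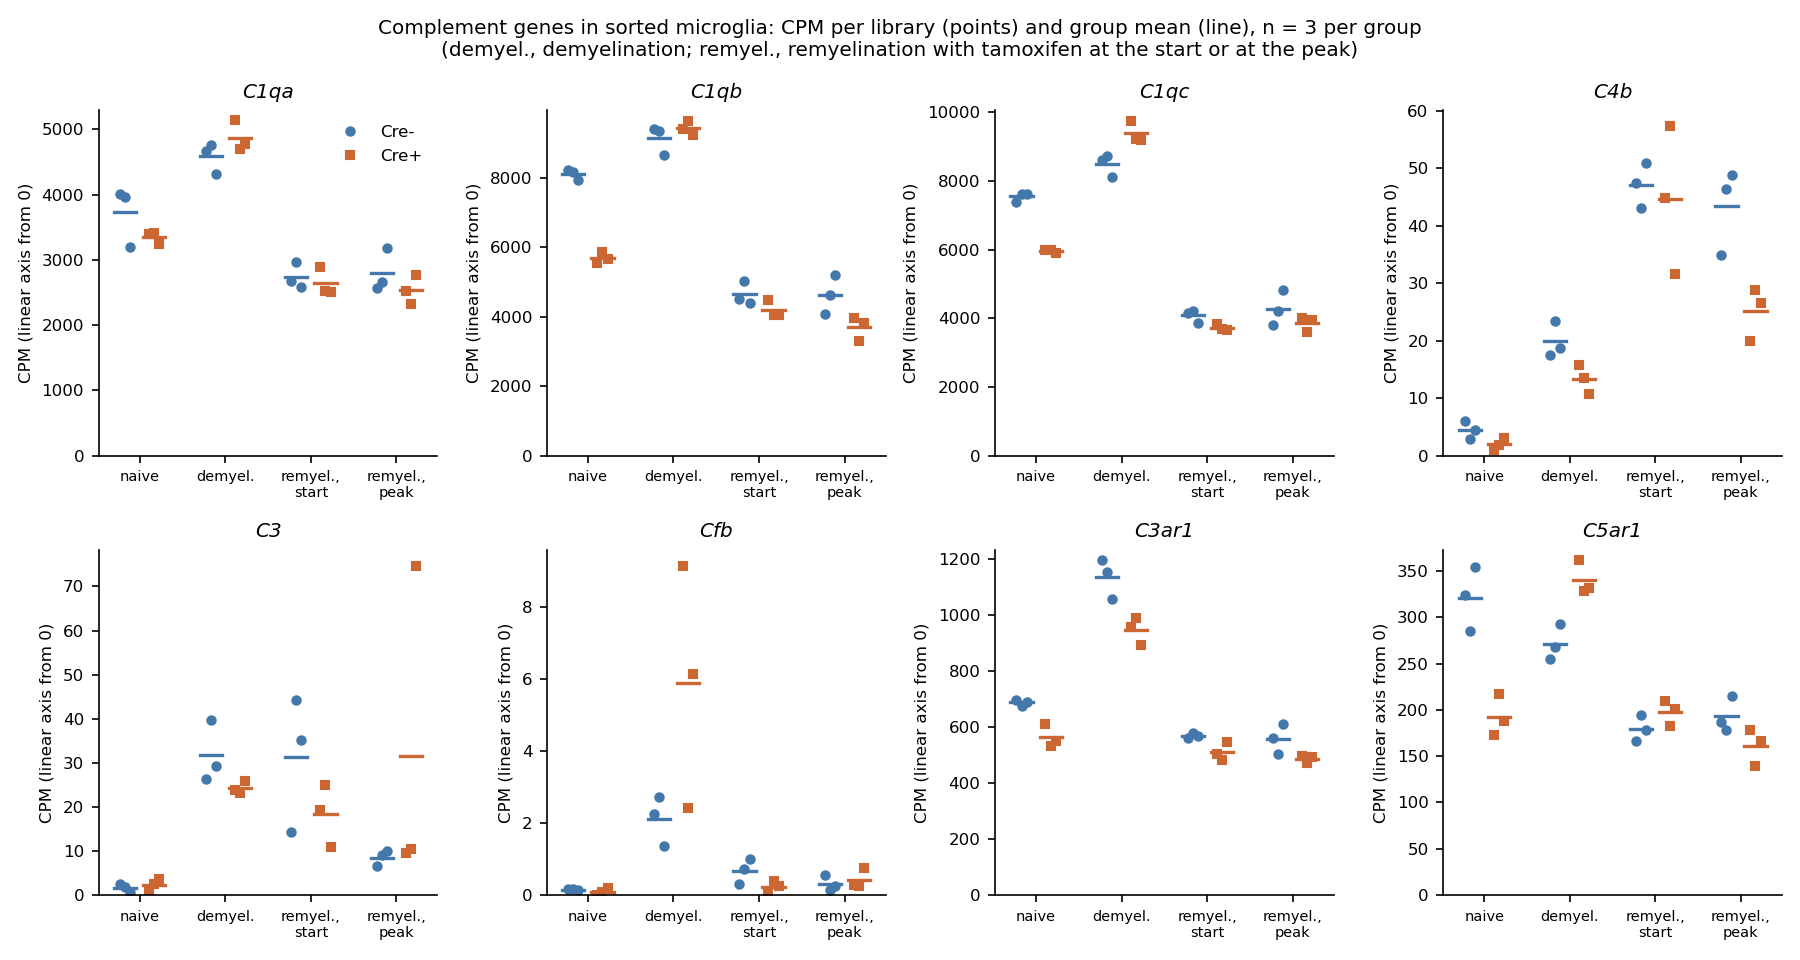
Level of each of the 8 members (y axis, CPM from 0) in each library by state (x axis), with blue circles for Cre- and orange squares for Cre+ libraries and a line at each group mean of 3 libraries. C1qb ran at 7942 to 8226 CPM in naive Cre- and 5550 to 5873 CPM in naive Cre+ libraries, while C3 in 1 remyelination-peak Cre+ library stood at 74.66 CPM.

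In naive mice, 5 of the 8 members were lower in Cre+ than in Cre- microglia and none was higher. C5ar1 fell most by fold among those with high counts, 1.67-fold, followed by C1qb at 1.42-fold, C1qc at 1.27-fold and C3ar1 at 1.22-fold, and the scarce C4b fell 2.16-fold. Over all 17579 genes, 13.7% were called lower and 14.7% higher at an adjusted p under 0.05, and the members' median log2 difference was -0.43 against -0.01 over all genes. The summed level of 10 microglia markers, Cx3cr1 among them, was 75850-80800 CPM in naive Cre- and 66680-67270 CPM in naive Cre+ libraries. Of these markers 2 were called lower and 0 higher, with a median log2 difference of -0.26. The part of this shift in the members' differences was not tested. In bulk RNA, fewer cells of a type and less RNA per cell cannot be told apart.

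The C1q genes lie side by side on the minus strand of chromosome 4 (GRCm38, GENCODE M21): C1qb (ENSMUSG00000036905) at chr4:136880129-136886187, C1qc (ENSMUSG00000036896) at chr4:136889804-136893065 and C1qa (ENSMUSG00000036887) at chr4:136895917-136898803. Their levels moved together between states but not evenly between genotypes, so the upstream sequences of the C1q genes that the RefSeq promoter table (GRCm38.p6) holds are shown, 5′ to 3′ on the gene's strand. Of the 8 members 5 were matched there, C1qb, C1qc, C3, C3ar1 and C5ar1, and C1qa, C4b and Cfb were not. For C1qb the 250 bases before the annotated start at chr4:136886201-136886450 are printed, and for C1qc the 99 bases at chr4:136893066-136893164, which end where the GENCODE gene model begins. Capitals mark a match, on the opposite strand, to the letters GAGGAAGT of the myeloid factor PU.1, which lies 195 to 188 bases before the RefSeq start of C1qc, a start inside the GENCODE gene model.
C1qb: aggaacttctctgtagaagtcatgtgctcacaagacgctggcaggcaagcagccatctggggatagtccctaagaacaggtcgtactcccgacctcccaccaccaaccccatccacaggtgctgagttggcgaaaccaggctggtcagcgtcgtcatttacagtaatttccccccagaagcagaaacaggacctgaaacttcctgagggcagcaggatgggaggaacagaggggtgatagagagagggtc
C1qc: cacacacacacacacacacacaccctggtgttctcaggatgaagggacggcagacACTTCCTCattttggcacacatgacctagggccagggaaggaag
The windows were searched on both strands for GAGGAAGT, TTNNGCAA (C/EBP factors), GAAANNGAA (interferon-stimulated elements) and TTCNNNGAA (gamma-activated sites), 4 motifs whose matches can overlap. The C1qb window held none of them. Over 32851 promoter windows of 250 bases, GAGGAAGT was in 2.44%, TTNNGCAA in 9.56%, GAAANNGAA in 7.13% and TTCNNNGAA in 7.02%. A match describes letters only.

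C1qb stood at 8226, 8179 and 7942 CPM in naive Cre- and at 5550, 5873 and 5681 CPM in naive Cre+ microglia. The genotypes did not overlap, and replicates lay within a narrow band (SD 152 and 162 CPM, n = 3 each). The log2 difference was -0.51 ± 0.09 (SE), with an edgeR adjusted p of 0.000196. C1qc read 7388, 7629 and 7626 CPM in Cre- and 5988, 5995 and 5897 CPM in Cre+ libraries, again with no overlap (log2 difference -0.34 ± 0.08, edgeR adjusted p = 0.00324). C1qa did not pass the test: it stood at 4014, 3971 and 3197 CPM in Cre- and 3390, 3410 and 3245 CPM in Cre+ libraries. The low Cre- replicate 3 lay below all Cre+ libraries, and the log2 difference was -0.15 ± 0.10 (edgeR adjusted p = 0.275).

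The 3 chains are needed in equal numbers in the protein, but their transcripts shifted against each other. The ratio of C1qb to C1qa CPM was 2.05, 2.06 and 2.48 in naive Cre- and 1.64, 1.72 and 1.75 in naive Cre+ libraries. All Cre+ values lay below all Cre- values, which in a two-sided exact permutation test gives p = 0.1, the smallest that 3 libraries against 3 allow. The ratio of C1qb to C1qc averaged 1.08 in naive Cre- and 0.956 in naive Cre+ libraries (exact permutation p = 0.1). In demyelination the C1qb to C1qa ratio averaged 1.99 in Cre- and 1.94 in Cre+ libraries and the groups overlapped (exact permutation p = 0.6). It was 1.7 against 1.59 in remyelination with tamoxifen at the start and 1.66 against 1.46 with tamoxifen at the peak, each without overlap (exact permutation p = 0.1 in each). The C1qb to C1qc ratio, Cre- first, was 1.08 against 1 in demyelination and 1.08 against 0.959 at the peak (exact permutation p = 0.1 in each). With tamoxifen at the start it was 1.14 against 1.13 (exact permutation p = 0.8). The C1qc to C1qa ratio was 2.04 against 1.78 in naive mice and 1.85 against 1.93 in demyelination (exact permutation p = 0.1 in each). In remyelination it was 1.49 against 1.41 with tamoxifen at the start (exact permutation p = 0.3) and 1.53 against 1.52 at the peak (exact permutation p = 0.9). Over the 12 ratios compared between genotypes no p could fall below 0.1, so none can pass a threshold of 0.05 before or after adjustment.

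C4b (ENSMUSG00000073418, chr17:34728380-34743882) encodes the C4 that follows C1q in the classical route. It stood at 6.038, 2.968 and 4.487 CPM in naive Cre- and 1.03, 1.933 and 3 CPM in naive Cre+ microglia. The highest Cre+ library overlapped the lowest Cre- library, and the log2 difference was -1.11 ± 0.33 (edgeR adjusted p = 0.0145). The call was lost when naive Cre- replicate 1 (log2 -0.88, adjusted p = 0.0616), Cre+ replicate 1 (-0.86, 0.0582) or Cre+ replicate 2 (-1.07, 0.0516) was left out, and without the 3 low-Cx3cr1 libraries it was -0.88, with adjusted p = 0.0528. C4b shares near-identical sequence with C4a, which was counted at group means of 0.2152 to 1.422 CPM, so the split between them is uncertain. Astrocytes also make C4, although the CD45int CD11b+ gate should remove them. The summed level of 11 astrocyte markers, none of them at 0, was 502.7-668 CPM in naive Cre- and 340.6-387.9 CPM in naive Cre+ libraries, with 4 of 11 called lower, and their part in the C4b difference was not tested.

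Both receptor genes were lower in naive Cre+ microglia. C5ar1 (ENSMUSG00000049130, chr7:16246743-16259540, minus strand), the signalling receptor for C5a, read 324.3, 285.4 and 354.7 CPM in Cre- and 172.5, 217.4 and 187.8 CPM in Cre+ libraries. The genotypes were clearly apart (log2 -0.74 ± 0.11, edgeR adjusted p = 1.95e-05). C3ar1 (ENSMUSG00000040552, chr6:122847138-122856161), the C3a receptor, read 698.1, 675.9 and 688.4 CPM in Cre- and 609.1, 530.9 and 550.2 CPM in Cre+ libraries. It did not overlap between genotypes either (log2 -0.29 ± 0.09, edgeR adjusted p = 0.0126), but its call was lost without Cre+ replicate 2 (log2 -0.24, adjusted p = 0.0702). C3 stood at 2.47, 1.722 and 0.7918 CPM in Cre- and 1.123, 2.441 and 3.577 CPM in Cre+ libraries, which overlap (edgeR adjusted p = 0.631). Cfb rested on 3, 6 and 4 counts in Cre- and 0, 4 and 5 counts in Cre+ libraries, and no fold is given for it.

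The gene next to C5ar1 went the other way. C5ar2 (ENSMUSG00000074361, chr7:16234585-16244154, the same strand) encodes a further C5a receptor, often described as a decoy because it does not couple to G proteins. It stood at 109.4, 109.9 and 108 CPM in naive Cre- and 342.4, 285 and 327.3 CPM in naive Cre+ microglia, a 2.92-fold rise (log2 1.54 ± 0.18, edgeR adjusted p = 4.82e-06). Cre- replicates were almost identical and every Cre+ library was well above them. With tamoxifen at the peak, C5ar2 read 118.3, 112 and 143.6 CPM in Cre- and 211.6, 352.9 and 364.7 CPM in Cre+ libraries (log2 1.31 ± 0.18, edgeR adjusted p = 9.37e-05). These calls held in 13 of 13 alternatives each. With tamoxifen at the start it read 104.2, 100.2 and 118.5 CPM in Cre- and 119.9, 125.2 and 123.9 CPM in Cre+ libraries, a log2 difference of 0.19 that did not pass the test, and the genotype effects of the 2 remyelination groups differed by 1.12 on the log2 scale (edgeR adjusted p = 0.0188). Genotype effects on C5ar2 in demyelination are given with the other receptors.

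**Figure D2:**
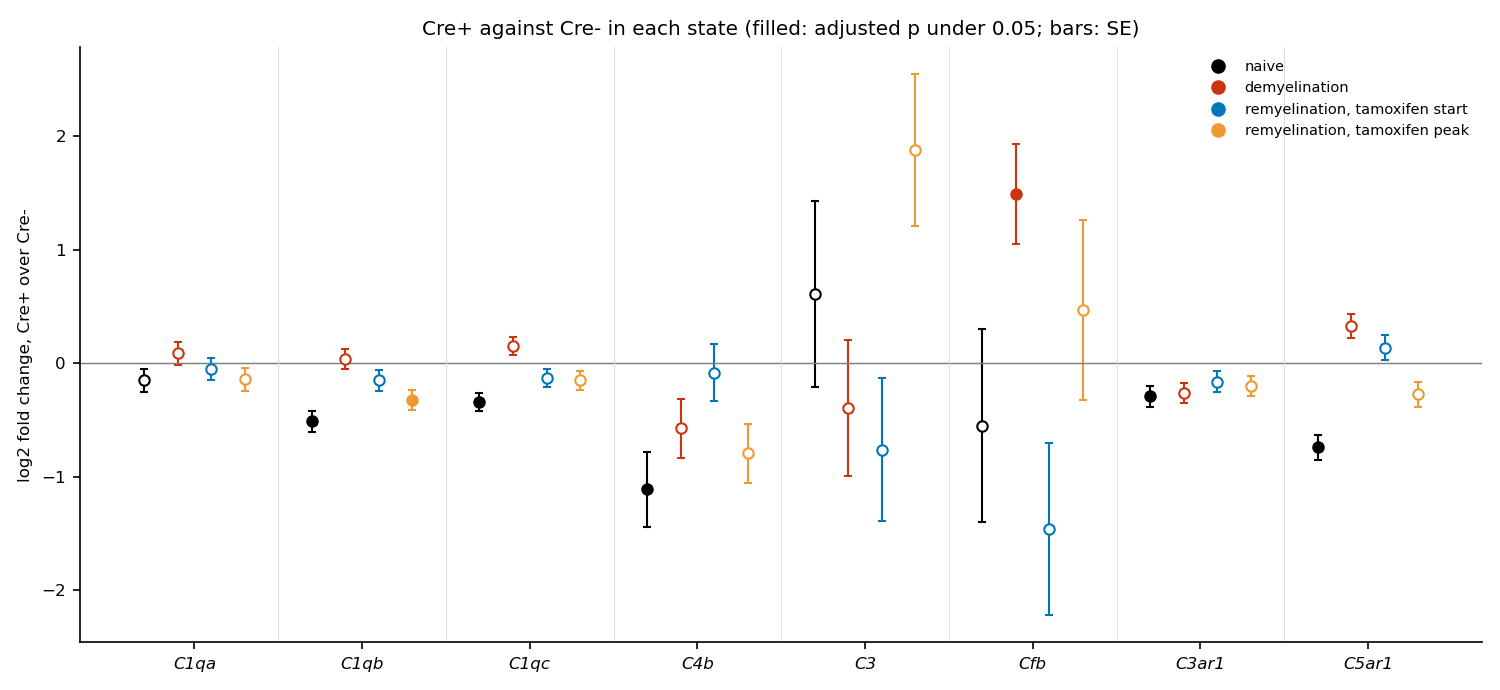
Difference between Cre+ and Cre- libraries for each member (y axis, log2, with bars for 1 SE) in each of the 4 states, from 3 libraries per group; filled points have an adjusted p under 0.05. Of the naive points 5 are filled and all lie below 0, the largest drop among them being -1.11 for C4b, while C5ar1 moves from -0.74 in naive mice to 0.33 in demyelination.

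In demyelination the calls were different: none of the 5 members that were lower in naive Cre+ microglia was called lower, and Cfb was called higher. Of those 5, C3ar1 and C4b still had negative log2 differences, at -0.26 and -0.57. Whether an effect changed between states is a separate test, given below. Over all genes, 5.69% were called higher and 3.48% lower in this state. Cfb (ENSMUSG00000090231, chr17:34856374-34862518), factor B of the alternative route, read 2.247, 2.713 and 1.372 CPM in Cre- libraries, from 29 to 49 counts. It read 9.143, 2.405 and 6.155 CPM in Cre+ replicates 1 to 3. The raised libraries, replicates 1 and 3, are the ones with low Cx3cr1, and replicate 2 lay inside the Cre- range. The log2 difference was 1.49 ± 0.44 (edgeR adjusted p = 0.0352), and without the low-Cx3cr1 libraries, an alternative chosen after the data had been seen that leaves 1 Cre+ library, it was 0.23 (adjusted p = 0.979). Leaving out single libraries also ended the call: Cre- replicate 1 (1.55, adjusted p = 0.084), Cre- replicate 2 (1.72, 0.0585), Cre- replicate 3 (1.26, 0.155), Cre+ replicate 1 (1.02, 0.318) or Cre+ replicate 3 (1.47, 0.0873). Summed levels of markers of several other cell types were higher in these Cre+ libraries, with no listed marker at 0. Neutrophil sums were 1343-1690 CPM against 210.1-908.3 CPM in Cre-, and monocyte sums 495.6-792.9 CPM against 255.4-399.3 CPM. Of 10 neutrophil markers 0 were called, with a median log2 difference of 1.23. Of 9 monocyte markers 1 was called higher and 3 lower, with a median of -1.22, so the higher monocyte sum was not shared by most of its genes. Endothelial sums were 131.5-135.6 CPM against 94.44-116 CPM in Cre-, with 0 of 8 markers called and a median of 0.44. Oligodendrocyte precursor sums were 75.14-115.8 CPM against 47.36-54.32 CPM, with 1 marker called higher, 1 lower and a median of 0.01. Itgal, an integrin chain of blood leukocytes looked at after its values were seen, read 42.97, 16.04 and 32.02 CPM in Cre+ replicates 1 to 3 and 16.5, 21.71 and 11.73 CPM in Cre-, the same order over replicates as Cfb. Their part in the genotype differences was not tested. A same-strand gene model, Gm20547, covers 79.5% of Cfb's exonic bases and received 0 counts in every library, so levels of Cfb may be understated.

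The remaining members in demyelination missed the threshold. C5ar1 read 255, 267.7 and 292.7 CPM in Cre- and 362.1, 328.6 and 331.6 CPM in Cre+ microglia. All Cre+ libraries were higher, with a log2 difference of 0.33 ± 0.11 and an edgeR adjusted p of 0.0576, which became 0.0464 without Cre+ replicate 2 (log2 0.36). C3ar1 read 1197, 1152 and 1056 CPM in Cre- and 956.8, 988.9 and 892.1 CPM in Cre+ libraries, without overlap and just short of the threshold (log2 -0.26 ± 0.09, edgeR adjusted p = 0.0514). With a correction for GC content and gene length both receptors passed, C3ar1 at adjusted p = 0.0187 and C5ar1 at 0.0477. C1qb was 9412, 9363 and 8662 CPM in Cre- and 9418, 9636 and 9231 CPM in Cre+ libraries, which overlap (log2 0.04 ± 0.09, edgeR adjusted p = 0.834). C1qa and C1qc had log2 differences of 0.09 and 0.15, C4b of -0.57 ± 0.26 (edgeR adjusted p = 0.199) and C3 of -0.39 ± 0.60 (adjusted p = 0.767).

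Whether the genotype effect itself differed between demyelination and the naive state was tested with the interaction term, and 3 of 8 members passed, all higher. Over all genes 7.97% were higher and 7.78% lower by this test, and the members' median was 0.52 against 0.00 over all genes. The difference was 1.06 ± 0.15 on the log2 scale for C5ar1 (edgeR adjusted p = 9.86e-05), 0.55 ± 0.13 for C1qb (0.00548) and 0.49 ± 0.12 for C1qc (0.00663). In each, Cre+ libraries were lower in naive mice and level with or above Cre- libraries in demyelination. All 3 calls held when any single library was left out. With only demyelination Cre+ replicate 2 and naive Cre+ replicates 2 and 3 kept on the Cre+ side, the differences were 1.01 for C5ar1, 0.64 for C1qb and 0.54 for C1qc. C3ar1 showed a difference of only 0.02 ± 0.12 (edgeR adjusted p = 0.934), and C4b of 0.54 ± 0.42 (adjusted p = 0.439).

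In remyelination with tamoxifen at the start, 0 of 8 members differed between genotypes by edgeR's adjusted p, 0 had an unadjusted p under 0.05, and DESeq2 called 0. Of all genes only 0.0341% were called higher and 0% lower, so the members did not stand apart from the rest. C5ar1 read 166.2, 194.2 and 178.8 CPM in Cre- and 209.5, 182.2 and 200.8 CPM in Cre+ libraries, which overlap. C1qb read 4519, 5033 and 4396 CPM in Cre- and 4496, 4045 and 4052 CPM in Cre+ libraries, a log2 difference of -0.15 ± 0.09. The lowest unadjusted p was that of Cfb (0.0551), which had only 3, 8 and 12 counts in Cre- and 1, 6 and 3 counts in Cre+ libraries.

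Against demyelination, the genotype effect at remyelination with tamoxifen at the start differed for 1 member, Cfb, by -2.95 ± 0.88 on the log2 scale (edgeR adjusted p = 0.0499). Over all genes 0.796% were called higher and 2.94% lower. This call was lost without the low-Cx3cr1 libraries (log2 -1.66, adjusted p = 0.59, with 1 demyelination Cre+ library left) and in 10 of 12 fits that left out a library, where the difference ran from -3.57 to -2.48. Those fits were without remyelination Cre- replicate 2 (-2.93, 0.128), remyelination Cre- replicate 3 (-2.54, 0.152), remyelination Cre+ replicate 1 (-2.56, 0.13), remyelination Cre+ replicate 2 (-3.57, 0.0833), remyelination Cre+ replicate 3 (-2.95, 0.0789), demyelination Cre- replicate 1 (-3.01, 0.0743), demyelination Cre- replicate 2 (-3.18, 0.0632), demyelination Cre- replicate 3 (-2.72, 0.117), demyelination Cre+ replicate 1 (-2.48, 0.16) or demyelination Cre+ replicate 3 (-2.93, 0.0824).

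In remyelination with tamoxifen at the peak, C1qb was again lower in Cre+ microglia and was the only member called. It stood at 4072, 4632 and 5214 CPM in Cre- and 3967, 3318 and 3826 CPM in Cre+ libraries, which did not overlap (log2 -0.32 ± 0.09, 1.25-fold, edgeR adjusted p = 0.0235). Over all genes 6.99% were called higher and 4.02% lower. The C1qb call was lost without Cre- replicate 2 (log2 -0.32, adjusted p = 0.0792), Cre- replicate 3 (-0.23, 0.117), Cre+ replicate 2 (-0.25, 0.154) or Cre+ replicate 3 (-0.35, 0.0598), and with GC content and gene length corrected (-0.22, 0.0713). C5ar1 read 187.4, 178.7 and 215.4 CPM in Cre- and 178, 139.2 and 166.4 CPM in Cre+ libraries, just without overlap (log2 -0.27 ± 0.11, edgeR adjusted p = 0.12). C3ar1 read 561.7, 502.6 and 609.1 CPM in Cre- and 494.8, 472.5 and 493.5 CPM in Cre+ libraries (log2 -0.20 ± 0.09, edgeR adjusted p = 0.146).

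C4b with tamoxifen at the peak read 34.84, 46.42 and 48.82 CPM in Cre- and 19.98, 28.81 and 26.52 CPM in Cre+ libraries. The genotypes did not overlap, yet the log2 difference of -0.79 ± 0.26 missed the threshold (edgeR adjusted p = 0.0584). It passed with GC content and length corrected (adjusted p = 0.0195), by DESeq2 (0.0159) and without the low-Cx3cr1 libraries, which are in other states (0.0308). Astrocyte markers, summed, came to 750.9-1130 CPM in Cre- and 410.5-598.9 CPM in Cre+ libraries of this state, with 2 of 11 called lower. In the state with tamoxifen at the start, where C4b differed by -0.08, the same markers overlapped (554.8-986.3 and 664.6-702.9 CPM in Cre- and Cre+ libraries). The part of astrocyte RNA in the C4b levels was not tested.

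C3 (ENSMUSG00000024164, chr17:57203970-57228136), the protein on which all routes converge, was dominated by 1 library in this state. It read 6.533, 9.031 and 9.961 CPM in Cre- and 9.49, 10.49 and 74.66 CPM in Cre+ microglia. The log2 difference of 1.88 ± 0.67 did not pass (edgeR adjusted p = 0.0851), was 0.23 without Cre+ replicate 3 (adjusted p = 0.862), and passed without Cre+ replicate 1 (2.31, 0.0294) or Cre+ replicate 2 (2.30, 0.047). Replicate 3 also carried 5252 CPM of 10 summed neutrophil markers, against 175.4 to 462 CPM in the other libraries of this state, and 677.7 CPM of 9 monocyte markers. All 10 neutrophil markers were detected in the groups. In remyelination with tamoxifen at the start, the Cre- libraries with 14.33, 44.18 and 35.23 CPM of C3 had 530.5, 4041 and 1717 CPM of neutrophil markers, and the Cre+ libraries with 19.4, 24.87 and 10.96 CPM of C3 had 712.3, 1071 and 367.1 CPM. In demyelination Cre- libraries the order was not the same: C3 was 26.42, 39.65 and 29.32 CPM beside 210.1, 602 and 908.3 CPM of neutrophil markers. Demyelination Cre+ libraries all had more neutrophil signal, at 1690, 1529 and 1343 CPM, and less C3, at 23.79, 23.11 and 25.92 CPM. Neutrophils express C3, and their part in these levels was not tested. The 250 bases before the annotated C3 start (RefSeq, GRCm38.p6, chr17:57228137-57228386) are shown because C3 had the largest log2 rise of the members in Cre- demyelination, given with the state comparisons. Capitals mark a match on the opposite strand to TTNNGCAA, 45 to 38 bases before the start.
C3: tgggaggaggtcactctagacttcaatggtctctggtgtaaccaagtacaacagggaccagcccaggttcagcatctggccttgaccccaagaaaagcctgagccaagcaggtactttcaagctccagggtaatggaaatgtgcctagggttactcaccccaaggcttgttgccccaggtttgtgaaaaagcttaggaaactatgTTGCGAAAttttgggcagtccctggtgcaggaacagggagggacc
In the C5ar1 window GAAANNGAA was matched on the opposite strand at 66 to 58 bases before the RefSeq start, which places it inside the GENCODE gene model of C5ar1, and the C3ar1 window held no match.

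**Figure D3:**
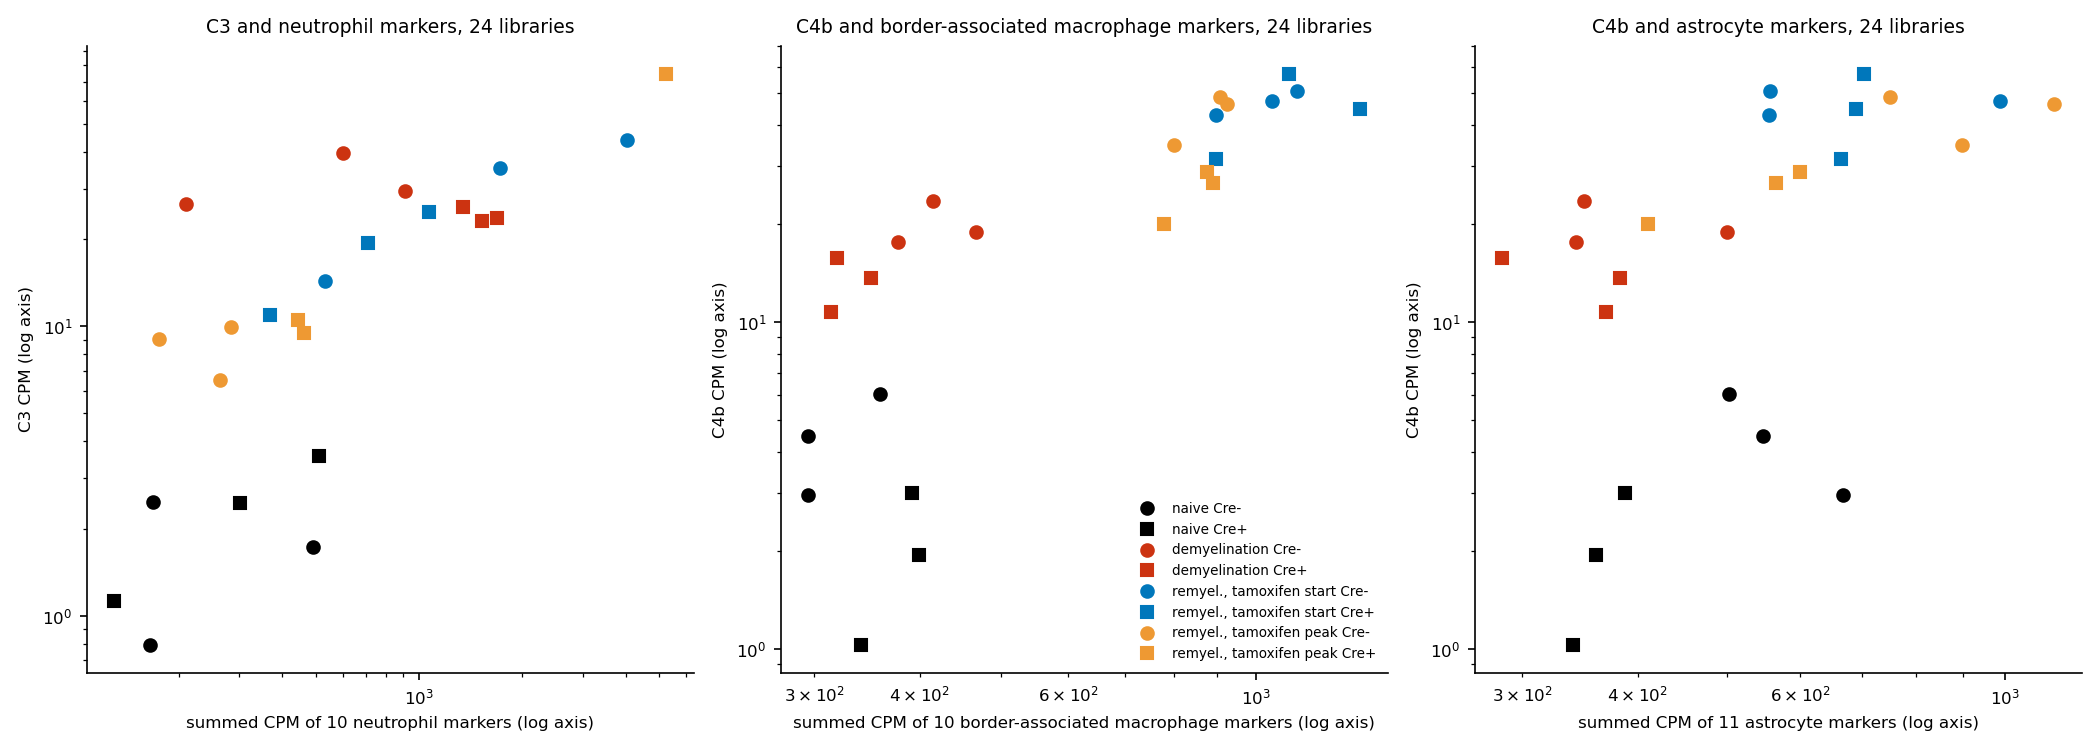
Each point is 1 of the 24 libraries, coloured by state, with circles for Cre- and squares for Cre+; log axes show C3 CPM against the summed CPM of 10 neutrophil markers (left) and C4b CPM against 10 border-associated macrophage markers (middle) and 11 astrocyte markers (right). The library with the highest C3, at 74.66 CPM, also has the highest neutrophil sum, 5252 CPM, and the remyelination libraries have border-associated macrophage sums of 778.6 to 1331 CPM against 295.4 to 466.1 CPM in the other states.

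Between the 2 remyelination groups the genotype effect differed for 0 of 8 members by edgeR's adjusted p, against 2.87% of all genes called higher and 0.893% lower. At an unadjusted p under 0.05 there were 2 members, C3 (2.64 ± 0.91, unadjusted p = 0.0108, adjusted 0.123) and C5ar1 (-0.40 ± 0.15, unadjusted p = 0.0153, adjusted 0.144).

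Complement transcripts were higher in cuprizone-fed than in naive mice for most members, with the largest rises among the scarce ones. Between naive and demyelinated Cre- microglia 5 of 8 members rose and none fell, with 19.7% of all genes called higher and 16.2% lower, and the members' median log2 change was 0.51 against 0.04 over all genes. In Cre+ microglia all 8 rose, with 26.3% of all genes called higher and 25.9% lower, and the median was 0.78 against 0.01. Each comparison is between 3 and 3 libraries of the same Cre label.

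The convertase genes showed the largest rises. C3 went from a mean of 1.661 ± 0.841 CPM (SD, n = 3) in naive to 31.8 ± 6.95 CPM (n = 3) in demyelinated Cre- microglia, 19.9-fold (log2 4.32 ± 0.74 SE, edgeR adjusted p = 0.000226). In Cre+ microglia it went from 2.38 ± 1.23 to 24.27 ± 1.46 CPM (SD, n = 3 each), 9.99-fold (edgeR adjusted p = 0.000752). No demyelination library came near a naive library in either genotype. C4b rose 4.56-fold in Cre-, to 17.59, 23.42 and 18.78 CPM, and 6.63-fold in Cre+, to 15.73, 13.58 and 10.74 CPM (edgeR adjusted p = 4.69e-06 and 3.51e-07). Cfb went from 3 to 6 counts a library to 29 to 49 counts in Cre- and from 0 to 5 counts to 51 to 236 counts in Cre+ microglia, log2 changes of 3.74 ± 0.64 and 5.78 ± 0.71 (edgeR adjusted p = 1.43e-05 and 1.14e-08). Without the low-Cx3cr1 libraries the Cre+ change of Cfb was 4.12 (adjusted p = 5.69e-05).

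C3ar1 rose 1.65-fold in Cre- and 1.68-fold in Cre+ microglia (edgeR adjusted p = 1.83e-07 and 4.33e-08), to the highest levels of any state. C5ar1 behaved otherwise. In Cre+ microglia it rose 1.77-fold, from 172.5-217.4 CPM to 328.6-362.1 CPM (log2 0.82 ± 0.11, edgeR adjusted p = 4.73e-07). In Cre- microglia it went from 285.4-354.7 CPM to 255-292.7 CPM, a log2 difference of -0.24 ± 0.11 that did not pass (edgeR adjusted p = 0.0843) except without naive Cre- replicate 2 (-0.33, 0.0327). Its neighbour C5ar2 fell in both, with log2 changes of -1.09 in Cre- and -1.84 in Cre+ microglia.

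C1q rose less. In Cre+ microglia C1qa, C1qb and C1qc rose by 0.54, 0.73 and 0.65 on the log2 scale (edgeR adjusted p = 7.07e-05, 2.73e-07 and 2.94e-07). In Cre- microglia C1qa had 0.30 ± 0.10 (edgeR adjusted p = 0.0226), while C1qb and C1qc, each at 0.17, did not pass, although their libraries did not overlap between states. The C1qa call in Cre- was lost without naive Cre- replicate 3 (0.19, 0.184), demyelination Cre- replicate 1 (0.27, 0.0822) or demyelination Cre- replicate 2 (0.26, 0.0951). Correcting for GC content and gene length took C1qa to -0.01 in Cre- (adjusted p = 0.923) and to 0.19 in Cre+ (0.0534), and C1qb to 0.31 in Cre+ (0.00243). The C1q exons are GC-rich, at 59.5% for C1qa, 57.4% for C1qb and 57.5% for C1qc, and they are short. The size of the C1q rise depends on this joint correction, and which of GC content and length moves it was not tested.

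Markers of other cells moved with these rises. Of 10 border-associated macrophage markers 9 were called higher and 1 lower in demyelination in each genotype, and the defining gene Mrc1 went from 13.41-17.4 CPM to 35.88-54.91 CPM in Cre- and from 5.99-7.732 CPM to 21.6-29.1 CPM in Cre+ microglia. Their summed level went from 295.4-359.3 CPM to 377.5-466.1 CPM in Cre- and in Cre+ from 340.8-399.8 CPM to 314.4-350.1 CPM. Of 9 monocyte markers 8 rose in Cre- and 5 in Cre+ microglia, with summed levels from 41.61-87.24 CPM to 255.4-399.3 CPM in Cre-. Of 10 neutrophil markers 3 rose in Cre- and 6 in Cre+. None of the markers on these lists was at 0 in any group. Their part in the rises of C3, C4b and Cfb was not tested. The summed microglia markers went from 75850-80800 CPM in naive to 44590-49750 CPM in demyelinated Cre- libraries. In Cre+ libraries they went from 66680-67270 CPM to 41560-44190 CPM. These sums do not tell cell number from RNA per cell, and their bearing on C1q and C3ar1 was not tested.

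**Figure D4:**
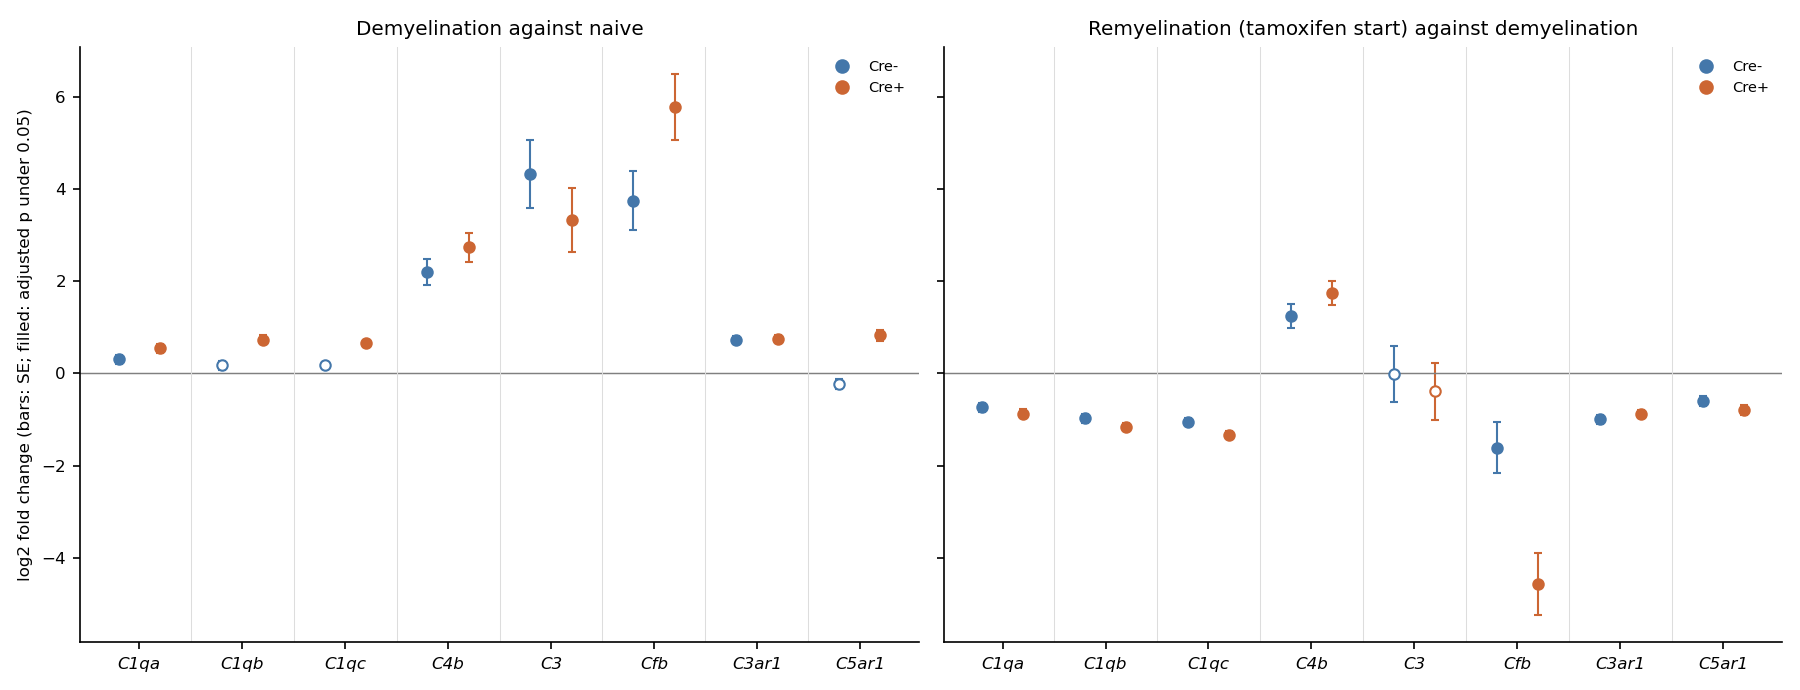
Change of each member between states (y axis, log2, bars for 1 SE), for demyelination against naive and for remyelination with tamoxifen at the start against demyelination, in Cre- and Cre+ libraries (3 per group). In the first comparison C3 has 4.32 in Cre- and 3.32 in Cre+; in the other C4b alone is called higher, at 1.24 and 1.74, while C3 lies near 0.

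After 6 weeks on normal diet in the group with tamoxifen at the start, C1q and both receptors were lower than at the end of cuprizone, while C4b was higher still. Comparing remyelination with tamoxifen at the start with demyelination, 1 of 8 members rose and 6 fell in Cre- microglia (26.3% of all genes called higher, 28.3% lower). In Cre+ microglia the same counts were found, 1 rising and 6 falling (32.5% and 30.8% of all genes), with the median over all genes at 0.12, so that changes there are to be read against that shift. C1qc fell to 3869-4222 CPM in Cre- and 3653-3819 CPM in Cre+ microglia, log2 changes of -1.06 and -1.33. Those of C1qb were -0.98 and -1.17, and those of C1qa -0.74 and -0.88. All edgeR adjusted p-values of these C1q changes were 8.77e-07 or smaller, and no library of one state reached those of the other.

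C3ar1 fell 2-fold in Cre- and 1.85-fold in Cre+ microglia, to 559.7-578.6 and 481.6-546.6 CPM (edgeR adjusted p = 4.8e-10 and 1.25e-09). C5ar1 fell 1.51-fold and 1.73-fold. Cfb fell too, with log2 changes of -1.61 in Cre- (edgeR adjusted p = 0.0145) and -4.57 in Cre+. The Cre- call of Cfb was lost without remyelination Cre- replicate 1 (-1.29, 0.0754) or demyelination Cre- replicate 2 (-1.37, 0.0618). C3 did not pass in either genotype, at -0.02 ± 0.61 in Cre- and -0.39 ± 0.62 in Cre+, with replicates spread from 10.96 to 44.18 CPM.

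C4b was the exception. It rose 2.37-fold in Cre- microglia, to 47.5, 43.03 and 50.92 CPM (log2 1.24 ± 0.26, edgeR adjusted p = 0.000447), and 3.33-fold in Cre+, to 44.91, 57.28 and 31.53 CPM (log2 1.74 ± 0.26, edgeR adjusted p = 1.06e-05). No demyelination library, at most 23.42 CPM, reached these levels. Most border-associated macrophage markers rose with it, and the summed level of all 10 was 898 to 1331 CPM against 314.4 to 466.1 CPM in demyelination. Of the 10, 7 were called higher and 2 lower in Cre-, and 8 higher and 2 lower in Cre+. Among those that rose, Cd163 was 25.36 to 44.53 CPM against 3.131 to 8.797 CPM. Of 11 astrocyte markers 9 rose in Cre- and 8 in Cre+. The part of either cell type in C4b was not tested.

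Set against the naive state, remyelinated microglia of the group with tamoxifen at the start had less C1q and more C3 and C4b. In Cre- libraries 3 members were higher and 5 lower (28.8% and 27.4% of all genes). In Cre+ libraries 2 were higher and 3 lower (28.6% and 29.2% of all genes). C4b was 10.8-fold higher in Cre- and 22.1-fold higher in Cre+ (edgeR adjusted p = 1.46e-08 and 1.13e-09), and C3 was 19.6-fold and 7.62-fold higher (adjusted p = 0.000139 and 0.00213). Log2 changes were -0.89 in Cre- and -0.68 in Cre+ for C1qc, -0.80 and -0.44 for C1qb, and -0.45 and -0.34 for C1qa. C5ar1 was lower in Cre- (-0.84 ± 0.11, edgeR adjusted p = 5.33e-07), and in Cre+, where the naive level was already low, the difference was 0.04 ± 0.11 (adjusted p = 0.796). Cfb was higher in Cre- (2.13, adjusted p = 0.011), a call lost without remyelination Cre- replicate 3 (1.69, 0.0891). That Cfb change rests on only 3, 8 and 12 counts in remyelination and 3, 6 and 4 counts in naive libraries, so its size is uncertain. C3ar1 was lower in Cre-, at -0.27 (adjusted p = 0.0083), but with GC content and length corrected it was 0.03 (0.73), and in Cre+ it turned from -0.14 (0.153) to 0.20 (0.0361). Of 10 neutrophil markers 9 were called higher in Cre- and 1 in Cre+ in this comparison, and of 9 monocyte markers 8 and 7, and their part in the C3 change was not tested. All 10 border-associated macrophage markers were called higher in each genotype. Of 11 astrocyte markers 4 were called higher and 1 lower in Cre-, and 10 higher and 0 lower in Cre+. The part of either cell type in the C4b change was not tested. Depth did not overlap between these states. The group with tamoxifen at the peak was not tested against naive or demyelination. Its Cre- libraries had a mean C3 of 8.508 CPM, against 31.25 CPM with tamoxifen at the start. The Cre+ means were 31.55 CPM at the peak, with 1 library at 74.66 CPM, and 18.41 CPM at the start.

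The order of the levels over the 8 groups summarises each member. C1qa, C1qb and C1qc were highest in the 2 demyelination groups and lowest in the 4 remyelination groups, and for C1qa the remyelination groups all overlapped one another. C3ar1 was highest in demyelination too, and its naive Cre+ range overlapped the remyelination Cre- ranges. C5ar1 was highest in demyelinated Cre+ libraries (mean 340.8 ± 18.5 CPM, SD, n = 3), whose range overlapped that of naive Cre- libraries (321.5 ± 34.7 CPM), and lowest with tamoxifen at the peak in Cre+ (161.2 ± 19.9 CPM). C4b was lowest in naive Cre+ (1.988 ± 0.986 CPM) and highest with tamoxifen at the start in Cre- (47.15 ± 3.96 CPM), whose range overlapped Cre+ of that state and Cre- of the peak state. C3 was lowest in naive Cre- (1.661 ± 0.841 CPM). Its demyelination Cre- range lay above that of Cre+, and the tamoxifen-at-start Cre- range overlapped both. Cfb was at 1.372 CPM or more in every demyelination library and reached at most 1.007 CPM elsewhere.

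Genes whose mean profile over the 8 groups lay nearest to each member were found among 9830 genes (9831 for Cfb) by the root mean square of the centred log2 differences, a description with no test. C4b's nearest were Mrc1 at 0.353, Cd38 at 0.371 and Cbr2 at 0.454, of which Mrc1 and Cbr2 are on the border-associated macrophage list, and C4b itself spans 4.61 on the log2 scale. C3's nearest were Clec12a (0.317), Xdh (0.378) and Gas7 (0.396), with a span of 4.28 for C3. Cfb's were Slc2a6 (0.278), Rsad2 (0.357), an interferon-induced gene, and Ank (0.387), with a span of 4.80. The C1q genes had close neighbours, the nearest being Mrps18a for C1qa (0.033), Nit2 for C1qb (0.063) and Chrac1 for C1qc (0.043). Their own spans were only 0.94, 1.35 and 1.33, and how many other genes lie nearly as close was not counted. For C3ar1 the nearest was Smim27 (0.063) and for C5ar1 Eipr1 (0.099).

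Beyond the 8 members, 50 other genes of the pathway were listed and 28 had enough counts. Between naive and demyelinated Cre- microglia 9 of the 28 rose and 5 fell, and in Cre+ 14 rose and 5 fell. Of all genes 19.7% were called higher and 16.2% lower in Cre-, and 26.3% and 25.9% in Cre+. Of the initiation genes 3 of 7 rose in Cre- and 4 of 7 in Cre+. The largest rise was that of Colec12, a scavenger receptor with a collectin domain, from 0.6095-1.056 CPM to 42.42-80.23 CPM in Cre- and from 0.4833-0.8461 CPM to 100-129.4 CPM in Cre+ (log2 6.17 and 7.38, edgeR adjusted p = 1.65e-14 and 5.55e-16). Masp1, a lectin-route protease, rose 2.33-fold and 5.45-fold. C2, the partner of C4 in the classical convertase, went from 0.4391, 0.583 and 0.2639 CPM to 8.55, 9.745 and 4.399 CPM in Cre- microglia (17.1-fold, edgeR adjusted p = 1.37e-09), beside C4b's 4.56-fold. Of C2's exonic bases 42.8% lie under Gm20547, as with Cfb.

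Among other receptor genes, Itgax, the CD11c chain of complement receptor 4, rose from 6.625-9.799 CPM to 266.8-340.4 CPM in Cre- and from 4.519-6.599 CPM to 257.4-263 CPM in Cre+ microglia (38.9-fold and 47.9-fold, edgeR adjusted p = 2.34e-15 and 2.92e-16). Cd93, once reported as a C1q receptor, rose 3.86-fold and 5.18-fold. Itgam, the CD11b chain of complement receptor 3 and a marker used in the sort, fell 1.55-fold in Cre- microglia (edgeR adjusted p = 2.04e-06). Its Cre+ change of -0.26 on the log2 scale was no longer called without demyelination Cre+ replicate 2 (-0.21, 0.0782), without the low-Cx3cr1 libraries (-0.31, 0.0743) and with GC content and length corrected (-0.09, 0.381) or no filter (-0.24, 0.0976). Of Itgam's exonic bases 68.7% lie under the same-strand model Gm49368. Of the regulators, 1 of 10 rose in Cre-, Vtn, whose call was lost in 7 of 11 alternatives, among them leaving out naive Cre- replicate 1 (0.99, 0.0836) or 3 (0.89, 0.137) and demyelination Cre- replicate 2 (1.04, 0.0712) or 3 (0.71, 0.19). Falls were called for 3, among them Csmd3 and Cd46 with log2 changes of -1.06 and -0.83. In Cre+ 5 of the 10 regulators rose and 3 fell. The shares over all genes were 19.7% higher and 16.2% lower in Cre-, and 26.3% and 25.9% in Cre+. Of 7 genes of the terminal route only C8g had enough counts.

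**Figure D5:**
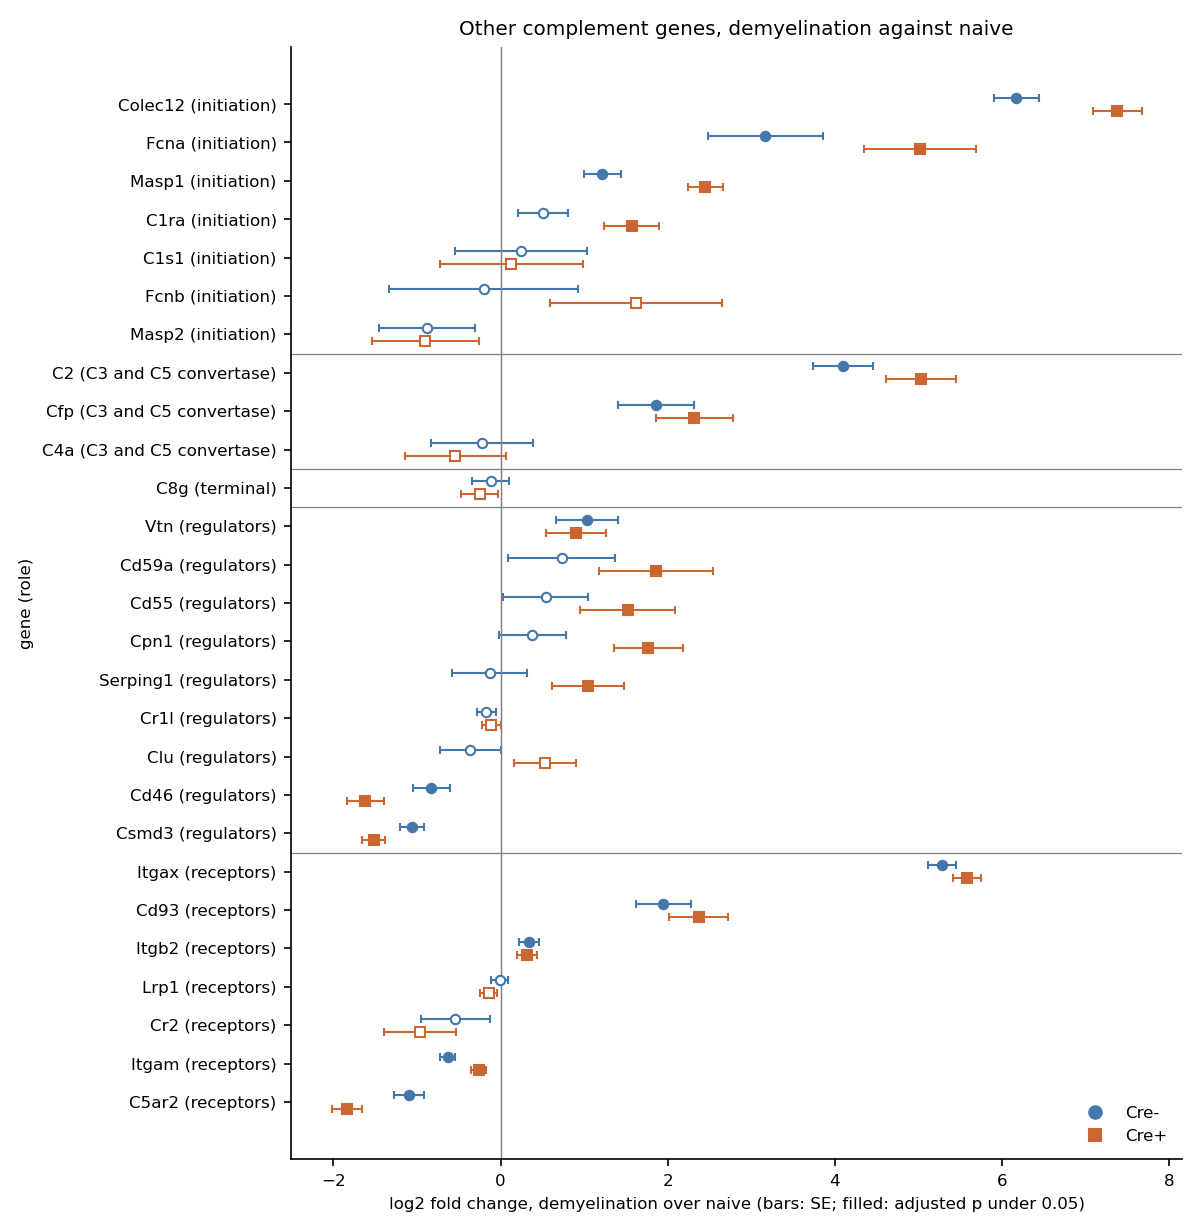
Change between naive and demyelination (x axis, log2, bars for 1 SE) of the other complement genes with enough counts, 1 of the 28 not shown, grouped by role, in Cre- and Cre+ libraries (3 per group). Colec12 lies farthest right at 6.17 and 7.38, followed by Itgax at 5.28 and 5.58, and C5ar2 lies on the left at -1.09 and -1.84.

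Between genotypes the other pathway genes moved less. In naive mice 4 of 28 were higher in Cre+ microglia (C5ar2, Csmd3 at 0.47, Lrp1 at 0.42 and Itgb2 at 0.38 on the log2 scale) and 2 were lower. Over all genes 14.7% were called higher and 13.7% lower, so these counts do not set the other pathway genes apart. C1ra, the protease that C1q activates, read 3.129, 3.153 and 3.167 CPM in Cre- and 0.4212, 0.9907 and 1.577 CPM in Cre+ libraries, with no overlap (log2 -1.63 ± 0.32, edgeR adjusted p = 0.000462, held in 13 of 13 alternatives). Itgax was lower too (-0.57), which was lost without naive Cre- replicate 3 (-0.40, 0.145), Cre+ replicate 2 (-0.44, 0.132) or Cre+ replicate 3 (-0.56, 0.0653). Lrp1 was lost with GC content and length corrected (0.15, 0.165), Csmd3 without Cre- replicate 1 (0.33, 0.0826) or the low-Cx3cr1 libraries (0.44, 0.0591), and Itgb2 without Cre- replicate 2 (0.32, 0.101), Cre+ replicate 1 (0.30, 0.113) or the low-Cx3cr1 libraries (0.27, 0.128).

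In demyelination 5 of 28 were higher in Cre+ microglia and 0 lower: Fcna at 1.86, Masp1 at 1.02, Colec12 at 0.84, C5ar2 at 0.79 and Itgam at 0.47 on the log2 scale. The shares over all genes were 5.69% higher and 3.48% lower. C5ar2 read 50.37, 47.79 and 55.95 CPM in Cre- and 109.7, 58.82 and 97.29 CPM in Cre+ replicates 1 to 3, with the low-Cx3cr1 libraries 1 and 3 the higher ones, as for Cfb. Without those libraries, which leaves 1 Cre+ library, none of the 5 passed, at 0.89 for Fcna, 0.65 for Masp1, 0.70 for Colec12, 0.24 for C5ar2 and 0.40 for Itgam (adjusted p = 0.826, 0.543, 0.431, 0.869 and 0.26). Without Cre+ replicate 1 alone, Masp1 was 0.80 (0.053), C5ar2 0.61 (0.0964) and Fcna had adjusted p = 0.133, and Fcna was also lost without Cre+ replicate 3 (1.82, 0.0517), Cre- replicate 1 (1.90, 0.0552), Cre- replicate 2 (1.74, 0.0794) or Cre- replicate 3 (1.97, 0.0539). In remyelination, 0 of 28 differed with tamoxifen at the start, against 0.0341% of all genes called higher and 0% lower. With tamoxifen at the peak 2 were higher, C5ar2 and Csmd3 (0.47), and 2 lower, Itgax and Vtn. Of all genes 6.99% were called higher and 4.02% lower there, near the shares of the 28. Itgax read 25.56, 32.17 and 26.34 CPM in Cre- and 13.69, 18.41 and 14.95 CPM in Cre+ libraries (log2 -0.84 ± 0.18, edgeR adjusted p = 0.00358), a call that held in 13 of 13 alternatives. Vtn, also on the list of mural cell markers, was -1.47 and was lost without Cre- replicate 1 (-1.39, 0.0602), Cre- replicate 2 (-1.08, 0.132), Cre+ replicate 1 (-1.27, 0.072) or Cre+ replicate 3 (-1.49, 0.0719). Csmd3 was lost without Cre- replicate 2 (0.47, 0.0908), Cre- replicate 3 (0.35, 0.113), Cre+ replicate 1 (0.46, 0.0511), Cre+ replicate 2 (0.41, 0.103) or the low-Cx3cr1 libraries of the other states (0.45, 0.0587).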

How the data were processed

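Bulk RNA-seq of sorted mouse brain microglia was measured in 24 libraries, 3 for each of 8 groups (4 states by 2 Cre labels), grouped by the genotype and treatment labels. The authors deposited 1 table of raw counts per gene (49315 gene rows). Per the submitters' processing notes the tools were Trimmomatic 0.36, STAR 2.5.2b, featureCounts of Subread 1.5.2 and DESeq2, with the build GRCm38, and no source used here gives the settings for strand or for reads with several matches. RNA was isolated with RNeasy columns and libraries made with an ultra-low-input kit, per the labels' protocols.

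From the deposited counts, genes were filtered with filterByExpr (17579 kept), scaled by TMM and tested with edgeR 4.0.16 (quasi-likelihood F test, limma 3.58.1, R 4.3.3) in 1 fit over all 8 groups, with 16 residual degrees of freedom. P-values were adjusted over all 17579 genes by the Benjamini-Hochberg method, with a threshold of 0.05. CPM values use the TMM-scaled totals, and the log2 CPM behind the profile comparison a prior count of 2. The code was tested on simulated data. Positions, exonic lengths and GC content are from GENCODE M21 (GRCm38), which held 49056 of the rows and not 259. Library totals of 8.87 to 44.53 M counts set the counting error, which matters only for C3, C4b, Cfb and other scarce genes.

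The alternatives were RLE scaling, no filter, a correction for GC content and length (splines with 5 degrees of freedom), a replicate block, DESeq2 1.42.0, and leaving out each library. Leaving out the 3 low-Cx3cr1 libraries was added after the data had been seen. All 8 members are named, and of the other pathway genes up to 4 per role with the smallest adjusted p among those called in each genotype comparison and in demyelination against naive. The members and gene lists were chosen with earlier results of these data known. The values of 1 other pathway gene are not reported here, although it is counted.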

Additional observations from a re-analysis of the deposited data

Results flagged for a closer look

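The difference between Cre+ and Cre- microglia was not the same in demyelination as in the naive state for 3 members, by the interaction test of edgeR. For C5ar1 the demyelination difference exceeded the naive one by 1.06 on the log2 scale, for C1qb by 0.55 and for C1qc by 0.49. For Cfb the genotype difference in remyelination with tamoxifen at the start lay -2.95 from that in demyelination. The 2 demyelination Cre+ libraries with high Cfb are those with low Cx3cr1, and the Cfb value was -1.66 (adjusted p = 0.59) without the 3 low-Cx3cr1 libraries, with 1 demyelination Cre+ library left.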

How the results depend on the processing

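Over single values of the 8 members, leaving out a library kept direction and side of the threshold in 735 fits, lost a call in 29, gained one in 4 and reversed 0. In the other settings 603 kept both, 11 lost a call, 15 gained one and 3 reversed, all 3 with the correction for GC content and length: C1qa in demyelination against naive in Cre- (-0.01), and C3ar1 in remyelination with tamoxifen at the start against naive in Cre- (0.03) and Cre+ (0.20). The cause was not tested.

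Members called between genotypes in demyelination numbered 1, and 2 with RLE scaling, no filter or DESeq2, 3 with GC content and length corrected, and 0 with the replicate block or without the low-Cx3cr1 libraries. With tamoxifen at the peak the count of 1 became 2 with GC content and length corrected, 3 with DESeq2 and 2 without the low-Cx3cr1 libraries. For the difference of genotype effects between remyelination with tamoxifen at the start and demyelination, the count of 1 became 0 with the replicate block, with the block plus GC content and length, and without the low-Cx3cr1 libraries, and 2 with DESeq2. Leaving out single libraries gave 3 to 5 members in naive mice, 0 to 2 in demyelination, 0 to 2 with tamoxifen at the peak and 0 to 1 for that difference. Over all genes, genotype calls in demyelination fell from 1612 to 81 without the low-Cx3cr1 libraries, a fit with 1 demyelination Cre+ library left, assumed to vary like the other groups, and those with tamoxifen at the start rose from 6 to 13, to 81 with no filter and to 45 with DESeq2. The demyelination against naive difference went from 2769 to 1625 without those libraries. The remyelination against demyelination difference went from 657 to 44 without them, to 1026 with no filter and to 1245 with DESeq2. RLE scaling moved the share of higher calls from 62.1% to 72.8% in demyelination and from 50.6% to 62.7% for the demyelination against naive difference.

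The replicate numbers were not taken as pairs: same-numbered Cre- and Cre+ libraries had correlated deviations of 0.15, 0.29 and 0.08 with tamoxifen at the peak but of -0.04 to 0.09 in the other states. With the replicate block, calls over all genes were 4902 in naive mice (4982 without), 1562 in demyelination (1612), 7 with tamoxifen at the start (6) and 1957 at the peak (1935). In naive and peak libraries each number correlated best with its own number, a hint from the data only.

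Scarce members limit the precision most: Cfb had 12 or fewer counts in every library outside demyelination, and C3 varied between replicates far more than the abundant genes.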
